A study of Mus musculus with 11 samples.

Results

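Toll-like receptors are the germline-encoded sensors with which innate immune cells, and some cells of the vessel wall and the glia, detect microbial products and molecules released from damaged cells. This report follows 10 genes of that system, of 32285 genes measured, through single-cell RNA sequencing of mouse brain after stroke. They were chosen by name, as the rows with these gene symbols: 6 receptors (Tlr1, Tlr2, Tlr3, Tlr4, Tlr7, Tlr9), the co-receptors Cd14 and Ly96, the adaptor Myd88 and the inhibitor Irak3. Droplet libraries were made from the right brain of 11 mice, 1 library per mouse, in 4 groups. The sham + WT group held 3 wild-type C57BL/6 mice with sham surgery, the sham + Lrg1-/- group 3 sham-operated mice that lack Lrg1 in every cell, the MCAO/R + WT group 2 wild-type mice after middle cerebral artery occlusion and reperfusion, and the MCAO/R + Lrg1-/- group 3 knockout mice after the same procedure. Wild-type mice were males of 8 to 10 weeks from Yangzhou University. The knockout mice were 3 months old, and the study does not state their sex. They came from a constitutive knockout of another supplier, Cyagen, backcrossed to C57BL/6N for 4 generations. Genotype therefore went with age and supplier, and perhaps with substrain and sex. Occlusion lasted 0.5 or 1 h and reperfusion 1, 6, 12 or 24 h in the study. Its text speaks of effects at 1 h, without saying for which interval, and the labels of these libraries name no time. All tests below compare libraries, so that p-values measure the spread between these few mice.

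Tlr4, with the secreted partner Ly96 (MD-2), binds bacterial lipopolysaccharide that Cd14 hands over, and Tlr2 pairs with Tlr1 to bind lipopeptides, all of them at the cell surface. Tlr3, Tlr7 and Tlr9 sit in endosomes and bind double-stranded RNA, single-stranded RNA and unmethylated DNA. All of these receptors except Tlr3 signal through Myd88 to the kinases of the IRAK family and to NF-kB, and Irak3 (IRAK-M) restrains that step. Microglia, the resident macrophages of the brain, carry most of these receptors, and Tlr3 is also known from astrocytes.

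RefSeq promoter sequences (GRCm38.p6, 250 bases before to 50 after a start site) were matched for 6 of the 10 genes: Tlr1, Tlr2, Tlr3, Tlr9, Myd88 and Irak3. Shown are the 5 of these whose microglial level changed after stroke in either genotype, since these are the annotated starts of genes whose counts moved. Which start was used cannot be read from counts per gene, and Tlr1 and Irak3 have 2 starts each in RefSeq. The RefSeq starts of Tlr1, Tlr2, Tlr3 and Myd88 lie inside the gene spans given below, which come from another annotation, GENCODE. Capitals mark matches to 4 motifs searched on both strands: NF-kB (GGAANTTCC), PU.1 (GAGGAAGT), AP-1 (TGANTCA) and the interferon-stimulated response element (GAAANNGAA). Each runs 5′ to 3′ on the gene's own strand, from the outermost start where RefSeq gave more than 1.
Tlr1, chr5:64933509-64933808, minus strand: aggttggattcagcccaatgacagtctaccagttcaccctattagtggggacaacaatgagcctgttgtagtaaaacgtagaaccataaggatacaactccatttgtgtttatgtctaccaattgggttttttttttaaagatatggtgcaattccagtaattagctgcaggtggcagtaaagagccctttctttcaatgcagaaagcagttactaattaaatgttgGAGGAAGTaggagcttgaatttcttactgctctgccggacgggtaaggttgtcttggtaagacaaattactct
Tlr2, chr3:83841559-83841858, minus strand: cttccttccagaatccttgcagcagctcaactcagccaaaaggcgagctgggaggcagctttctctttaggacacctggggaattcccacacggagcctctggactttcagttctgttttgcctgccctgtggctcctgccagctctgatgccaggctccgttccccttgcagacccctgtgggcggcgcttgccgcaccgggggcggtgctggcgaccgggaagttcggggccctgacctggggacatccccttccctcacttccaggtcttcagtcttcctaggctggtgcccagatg
Tlr3, chr8:45410331-45410630, minus strand: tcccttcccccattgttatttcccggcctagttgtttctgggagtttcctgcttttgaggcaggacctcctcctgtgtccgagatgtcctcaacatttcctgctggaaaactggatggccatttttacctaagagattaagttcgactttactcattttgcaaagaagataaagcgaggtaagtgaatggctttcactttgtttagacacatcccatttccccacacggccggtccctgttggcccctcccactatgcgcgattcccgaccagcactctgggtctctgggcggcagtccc
Tlr9, chr9:106222348-106222647, plus strand: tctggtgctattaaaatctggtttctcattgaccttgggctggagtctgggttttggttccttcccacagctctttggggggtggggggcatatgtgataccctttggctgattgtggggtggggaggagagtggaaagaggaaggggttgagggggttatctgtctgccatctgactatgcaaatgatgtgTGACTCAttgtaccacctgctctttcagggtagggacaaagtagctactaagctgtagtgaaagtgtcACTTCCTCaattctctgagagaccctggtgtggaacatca
Irak3, chr10:120202081-120202380, minus strand: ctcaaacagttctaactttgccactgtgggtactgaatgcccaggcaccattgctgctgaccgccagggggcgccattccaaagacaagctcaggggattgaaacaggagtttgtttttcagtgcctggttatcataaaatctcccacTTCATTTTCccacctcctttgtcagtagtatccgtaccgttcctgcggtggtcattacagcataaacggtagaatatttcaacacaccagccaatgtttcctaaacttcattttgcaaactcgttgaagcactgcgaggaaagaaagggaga

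With the start site counted as 1 and the base before it as -1, the Tlr1 promoter held a PU.1 match whose first base is at -23. The Tlr9 promoter held an AP-1 match at -58 and a PU.1 match on the other strand at 11. The Irak3 promoter held an interferon-stimulated response element on the other strand at -102, and the Myd88 promoter, not printed, 1 at -40. The windows of Tlr2 and Tlr3 held none of the 4 strings, and no matches overlapped. The NF-kB string is a narrow form, and its absence does not show that a promoter lacks an NF-kB site. The Tlr2 window, for example, holds gggaattccc, which differs from the string in lacking its middle base. Over all 32851 RefSeq promoters of this length the shares with a match were 0.928% for NF-kB, 3.20% for PU.1, 7.81% for AP-1 and 8.56% for the interferon-stimulated response element.

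The genes lie apart in the genome (GRCm38): Tlr1 at chr5:64924679-64933563 (minus strand), Tlr2 at chr3:83836272-83841767 (minus), Tlr3 at chr8:45395665-45411080 (minus), Tlr4 at chr4:66827584-66930284 (plus), Tlr7 at chrX:167304929-167330558 (minus) and Tlr9 at chr9:106222598-106226883 (plus). Cd14 lies at chr18:36725067-36726798 (minus), Ly96 at chr1:16688051-16709611 (plus), Myd88 at chr9:119335934-119341411 (minus) and Irak3 at chr10:120141648-120202130 (minus).

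Of 155804 barcodes, 132437 cells had more than 500 genes, more than 1000 UMIs and under 25% mitochondrial UMIs, and 125211 remained after 7226 predicted doublets were removed. Totals per library ran from 37159497 to 171813031 UMIs, and the median UMIs per cell from 6064 to 9943 in sham + WT, 4674 to 7911 in sham + Lrg1-/-, 9611 to 11504 in MCAO/R + WT and 3190 to 6456 in MCAO/R + Lrg1-/-. The 16 named cell types included 36937 microglial cells (503 to 5741 per library), 21570 endothelial cells (595 to 3528) and 1765 macrophages (37 to 282). A further 11860 cells stayed unnamed, 10557 of them from MCAO/R + Lrg1-/- replicate 5. Lrg1 had no UMI in these 3 cell types in any of the 6 knockout libraries, whereas endothelial cells of the wild-type libraries held at least 7.02 CPM (UMIs per 1000000 UMIs) after sham surgery and 421 and 515 CPM after stroke. Pairs of libraries shared 0.233 to 1.24% of their barcodes.

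The knockout libraries also stood apart in ways that are not the gene itself. In microglial cells, 4 haemoglobin genes together held 17.4 to 90.9 CPM in wild-type and 16349 to 49880 CPM in knockout libraries, and 4 choroid plexus genes 123 to 550 against 2711 to 7753 CPM. A list of 14 early response genes that dissociation is known to induce held 36209 to 43450 CPM in wild-type and 10117 to 23900 CPM in knockout microglial cells. A microglial cluster whose cells held few UMIs made up 0.552 to 1.28% of the microglial cells in sham + WT, 37.3 to 45.7% in sham + Lrg1-/-, 0.873 and 6.18% in MCAO/R + WT, and 90.2, 23.0 and 17.9% in MCAO/R + Lrg1-/- replicates 1, 2 and 5. These differences went with genotype in all 11 libraries and cannot be told apart from it, so the within-genotype comparisons of stroke with sham come first below. In sums over cells of a type, a change in the mix of cells and a change in RNA per cell cannot be told apart.

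Across the cell types, myeloid cells held most of the receptor RNA, and Tlr3 was the exception. Levels are given here as plain CPM, the median over libraries with at least 20 cells of the type with the lowest and highest library, each gene being compared only with itself and without a test. Neutrophil values rest on 5 libraries, 4 of them after stroke, and B cell values on 6, 4 of them after sham surgery, so that the order of these 2 cell types against others also carries the groups present. Tlr2 was highest in monocytes at 189 CPM (93.2 to 212), ahead of neutrophils at 143 (127 to 233), macrophages at 118 (92.1 to 144) and microglial cells at 83.8 (62.6 to 276), and these 4 ranges overlapped. Outside them its median was at most 21.6 CPM, in B cells. Tlr1, its partner, was low throughout, at 15.2 CPM in neutrophils (6.71 to 17.4), 13.8 in macrophages (4.01 to 33.7), 10.8 in microglial cells (8.33 to 27.8), 10.3 in B cells (7.84 to 26.5; 21 UMIs) and 9.38 in monocytes (4.66 to 21.8), with overlapping ranges. Tlr4 ran from 99.7 CPM in neutrophils (52.4 to 171) through 76.2 in macrophages (23.4 to 124) to 49.4 in microglial cells (38.2 to 66.1), again with overlapping ranges, and pericytes held 22.4 (8.84 to 37.0). Tlr7 was level between microglial cells at 92.7 CPM (75.4 to 202) and macrophages at 91.1 (39.9 to 165), and monocytes held 47.8 (24.6 to 82.5).

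Tlr3 peaked in astrocytes at 58.5 CPM (19.9 to 127), above microglial cells at 19.6 (14.3 to 32.1) and endothelial cells at 18.8 (12.5 to 22.4). The lowest astrocyte library lay within the microglial range. Tlr9 was sparse, with 671 UMIs and a median of 1.48 CPM (0.627 to 3.67) in microglial cells and at most 26 UMIs in any other cell type.

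Cd14 stood at 1172 CPM in neutrophils (136 to 1844), 981 in macrophages (645 to 1851), 579 in monocytes (242 to 1833) and 337 in microglial cells (239 to 1775). The order of neutrophils and macrophages turned within sham surgery, where the 1 neutrophil library held 136 CPM and the macrophage libraries 836 to 1363. Ly96 was highest in macrophages at 65.5 CPM (35.0 to 78.7), and its lowest macrophage library lay above the highest microglial library (28.4; 19.6 to 33.3). Myd88 was spread over myeloid and vessel cells, with 85.5 CPM in neutrophils (52.1 to 102), 50.6 in vascular smooth muscle cells (36.4 to 69.5), 43.0 in monocytes (26.6 to 72.3), 36.4 in pericytes (23.6 to 68.6), 35.3 in microglial cells (25.9 to 54.0) and 20.2 in endothelial cells (13.7 to 23.9). Irak3 was highest in neutrophils at 175 CPM (121 to 292) and B cells at 130 (88.1 to 187; 207 UMIs in 6 libraries), whose ranges overlapped and whose order was not the same after sham surgery (187, 158 and 159 CPM in the B cells of sham + WT against 144 in the 1 neutrophil library), then in monocytes at 53.3 (31.9 to 133). It was nearly level over vascular smooth muscle cells (18.3), macrophages (17.9), microglial cells (17.5) and endothelial cells (15.9), whose ranges overlapped.

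**Figure D1:**
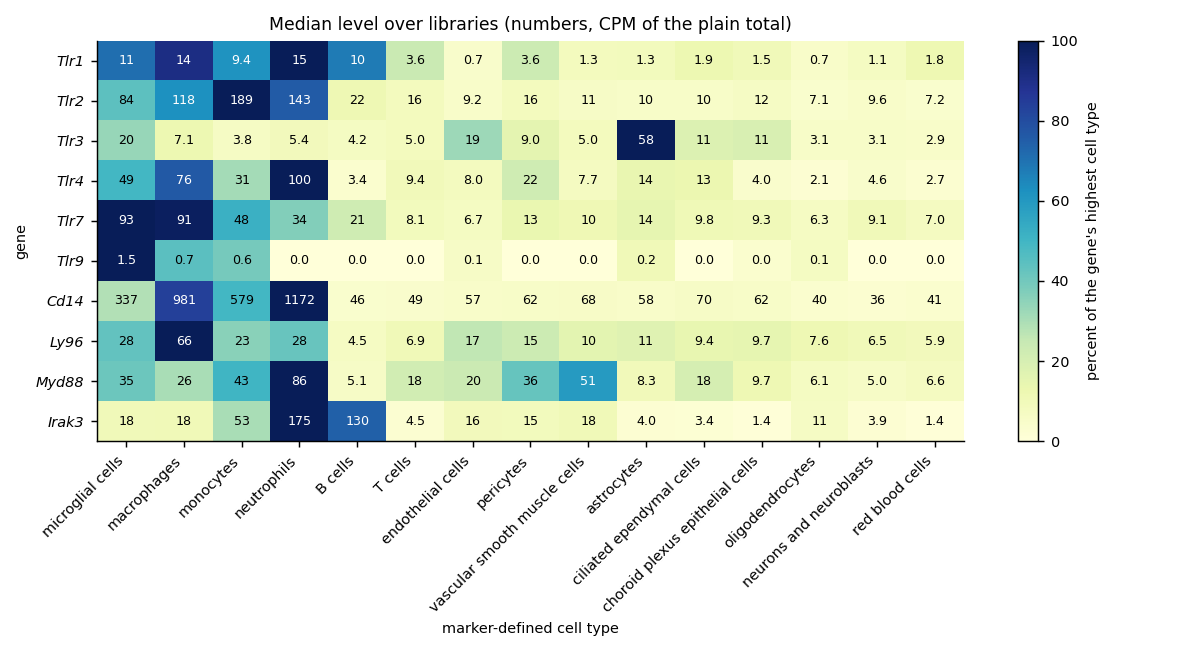
Heatmap of the median plain CPM of each of the 10 genes (rows) in each cell type (columns), coloured by the percent of that gene's highest cell type. Tlr2, Tlr4, Tlr7 and Cd14 are darkest in the myeloid columns, Tlr3 in astrocytes (58.5 CPM) and Irak3 in neutrophils (175 CPM) and B cells (130 CPM).

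Changes between groups were tested with edgeR's quasi-likelihood test on UMIs summed per library and cell type, with Benjamini-Hochberg adjustment over all genes of the cell type, and a gene was called at an adjusted p under 0.05 and a fold above 1.28. Below, CPM are scaled by the trimmed mean of M-values within the cell type. Counting each gene in each cell type where it was tested, stroke changed 12 of 96 in wild-type mice (10 higher, 2 lower; median log2 fold change 0.37), where 6.31% of all genes tested over the same 11 cell types were called. In knockout mice it changed 15 of 102 (13 higher, 2 lower; median 0.58) over 13 cell types, against 7.85% of all genes. Knockout differed from wild-type in 16 of 101 after sham surgery (12 higher, 4 lower; median 0.35; 11.4% of all genes) and in 23 of 103 after stroke (14 higher, 9 lower; median 0.53; 15.7% of all genes), over 12 cell types each. Low genes were filtered on the counts of all libraries of the type, so that a gene which passed through 1 group alone could enter these counts.

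These counts moved with single libraries. The share of all genes called was not kept for these fits, so whether other genes moved likewise is not known. The 12 calls after stroke in wild-type mice became 6 without MCAO/R + WT replicate 1. The 15 in knockout mice became 5 without sham + Lrg1-/- replicate 1, 7 without its replicate 2 and 23 without MCAO/R + Lrg1-/- replicate 1. After sham surgery the 16 genotype calls fell to 6 or 2 without sham + Lrg1-/- replicates 2 or 5, and to 7, 2 and 2 without sham + WT replicates 1, 2 and 3. After stroke the 23 fell to 7 without MCAO/R + WT replicate 2.

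In microglial cells of wild-type mice, stroke raised Tlr2, Tlr7, Cd14 and Irak3 and lowered Tlr3 and Tlr9, which is 6 of the 10 genes, where 17.3% of all 18653 genes tested were called. Tlr2, the lipopeptide receptor, held 78.6, 88.2 and 80.1 CPM in the sham + WT libraries and 254 and 168 CPM in the MCAO/R + WT libraries. Both stroke libraries lay above all 3 sham libraries, a 2.57-fold rise (log2 fold change 1.36, SE 0.22, adjusted p = 0.0011). Tlr7, the single-stranded RNA receptor, rose from 88.2, 97.6 and 91.3 to 180 and 208 CPM, 2.10-fold and again without overlap (log2 1.07, SE 0.19, adjusted p = 0.0020). Its call was kept under every alternative tried, with log2 values of 0.96 to 1.18, whereas Tlr2 in cells thinned to 1000 UMIs gave 1.16 with an adjusted p of 0.056.

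Cd14, the carrier of lipopolysaccharide, held 269, 269 and 247 CPM after sham surgery and 1278 and 698 CPM after stroke in wild-type mice. The groups did not overlap and the fold was 3.78 (log2 1.92, SE 0.39, adjusted p = 0.0049), but the stroke libraries differed from each other and without MCAO/R + WT replicate 1 the value was 1.42 with an adjusted p of 0.075, below that of Irak3 without the same library (2.03). Irak3, which restrains signaling downstream of Myd88, rose from 18.2, 22.5 and 18.3 to 55.6 and 80.1 CPM, 3.45-fold without overlap (log2 1.79, SE 0.33, adjusted p = 0.0025). With neighbours that were not balanced over libraries in the clustering, the log2 value was 0.77 and the adjusted p 0.12.

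The nucleic acid receptors Tlr3 and Tlr9 went the other way. Tlr3 held 30.2, 28.0 and 33.1 CPM after sham surgery and 18.2 and 14.7 CPM after stroke. All stroke values lay below all sham values, 1.85-fold lower (log2 -0.89, SE 0.16, adjusted p = 0.0022), and thinned to 1000 UMIs per cell the value was -0.95 with an adjusted p of 0.051. Tlr9 held 3.38, 3.87 and 3.67 CPM (129, 154 and 137 UMIs) after sham surgery and 1.29 and 1.53 CPM (66 and 62 UMIs) after stroke. It was 2.58-fold lower (log2 -1.37, SE 0.38, adjusted p = 0.024), a call that was lost without any 1 of the 5 wild-type libraries, at log2 values of -1.25 to -1.49.

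The other 4 genes did not pass the test in wild-type microglial cells. Tlr1 held 9.62, 9.39 and 11.5 CPM after sham surgery and 18.0 and 9.04 CPM after stroke (log2 0.41, SE 0.28, adjusted p = 0.36), and the groups overlapped. Tlr4 was near its sham level (55.9, 60.5 and 57.0 against 53.8 and 68.1 CPM; log2 0.08, SE 0.16, adjusted p = 0.80). Ly96, its partner, held 32.0, 34.1 and 29.3 CPM in the sham + WT libraries and 21.0 and 23.2 CPM after stroke (log2 -0.53, SE 0.19, adjusted p = 0.077), and Myd88 36.7, 36.6 and 31.5 against 54.0 and 55.7 CPM (log2 0.65, SE 0.22, adjusted p = 0.056). Neither Ly96 nor Myd88 overlapped between the groups, yet both missed the threshold.

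In microglial cells of knockout mice, stroke raised Tlr1, Tlr2 and Cd14, 3 of the 10 genes, where 33.6% of all genes were called. Tlr2 rose from 59.5, 59.7 and 58.9 to 165, 299 and 239 CPM, with the 3 sham libraries close together and every stroke library above them. The fold was 3.95 (log2 1.98, SE 0.21, adjusted p = 5.3e-05) and the call was kept under every alternative. Tlr1, the receptor that pairs with it, held 9.94, 7.52 and 8.23 CPM after sham surgery and 16.9, 30.1 and 21.8 CPM after stroke, 2.67-fold higher without overlap (log2 1.42, SE 0.28, adjusted p = 0.0019). Cd14 rose from 312, 230 and 298 to 528, 1921 and 965 CPM, 4.06-fold (log2 2.02, SE 0.37, adjusted p = 0.0011). Its stroke libraries spread widely, yet the lowest of them lay above all sham libraries.

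Irak3 and Tlr7, which rose in wild-type microglial cells, did not pass the test in knockout ones. Irak3 held 14.9, 7.20 and 7.24 CPM after sham surgery and 10.9, 18.0 and 27.9 CPM after stroke, with overlap (log2 0.92, SE 0.34, adjusted p = 0.051). Tlr7 held 82.0, 68.0 and 91.5 CPM against 72.4, 116 and 94.4 CPM, also with overlap (log2 0.24, SE 0.18, adjusted p = 0.34). The test of the difference between the genotypes in the change with stroke did not pass for either gene: the interaction was -0.83 for Tlr7 (SE 0.26, unadjusted p = 0.0070, adjusted p = 0.079) and -0.86 for Irak3 (SE 0.47, adjusted p = 0.30). The remaining 5 genes in knockout microglial cells gave log2 values from -0.52 (Tlr9) to 0.51 (Myd88) with adjusted p from 0.075 to 0.98.

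The mix of microglial clusters moved with stroke. In sham + WT, cluster 2 held 52.0 to 58.0% of the microglial cells of a library and cluster 15 held 12.5 to 35.0%, against 3.49 and 4.04% and 0.468 and 0.207% in MCAO/R + WT. Cluster 8 went from 1.27 to 2.45% to 34.8 and 44.5%, and cluster 9 from 0.194 to 0.222% to 39.3 and 5.77%. Cluster 1 held 8.05 to 32.8% of the cells after sham surgery and 15.7 and 44.6% after stroke. Clusters are named by the number the clustering gave them, and clusters 1, 2 and 8 are the ones with at least 46 cells in each wild-type library.

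Tlr7 and Irak3 were higher after stroke within each of these 3 clusters, in plain CPM and with no test. Tlr7 held 73.4 to 92.3 CPM in sham + WT and 183 and 205 in MCAO/R + WT in cluster 1, 85.5 to 94.3 against 208 and 224 in cluster 2, and 76.7 to 109 against 181 and 204 in cluster 8. Irak3 held 12.6 to 14.8 against 38.5 and 62.2, 15.8 to 21.8 against 31.2 and 57.0, and 41.1 to 44.7 against 54.2 and 90.1 CPM in the same order. Tlr2 was not higher in each cluster: it held 81.7 to 105 against 131 and 134 CPM in cluster 1, but 71.4 to 83.8 against 72.0 and 66.4 in cluster 2 and 185 to 238 against 164 and 168 in cluster 8. Cd14 was higher in cluster 1 (304 to 351 against 852 and 681 CPM) and cluster 2 (246 to 251 against 362 and 274) and overlapped in cluster 8 (500 to 649 against 749 and 613). Tlr3 was lower in clusters 1 and 2 (26.6 to 33.7 against 17.2 and 13.3, and 27.4 to 31.7 against 17.8 and 14.8 CPM) and overlapped in cluster 8 (12.8 to 25.5 against at most 18.0).

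In knockout mice, Tlr2 within clusters was higher after stroke in cluster 1 (53.8 to 87.2 against 134 to 227 CPM), in cluster 2 (52.3 to 64.0 against 81.3 and 74.6) and in the low-UMI cluster (20.1 to 32.5 against 85.2 to 130), and overlapped in cluster 8. Cd14 was higher in cluster 1 (289 to 384 against 661 to 841 CPM) and in the low-UMI cluster (159 to 173 against 335 to 1228) and overlapped in clusters 2 and 8. Tlr1 overlapped in clusters 1, 2 and 8 and was higher in the low-UMI cluster (2.32 to 12.6 against 13.9 to 17.5 CPM), where the sham values rest on few UMIs. The 12.6 CPM came from 205 cells of sham + Lrg1-/- replicate 5 with a median of 1343 UMIs. In these mice cluster 2 went from 34.4 to 39.5% of the microglial cells after sham surgery to at most 0.865% after stroke, and cluster 9 from at most 0.350% to 2.78 to 45.7%.

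**Figure D2:**
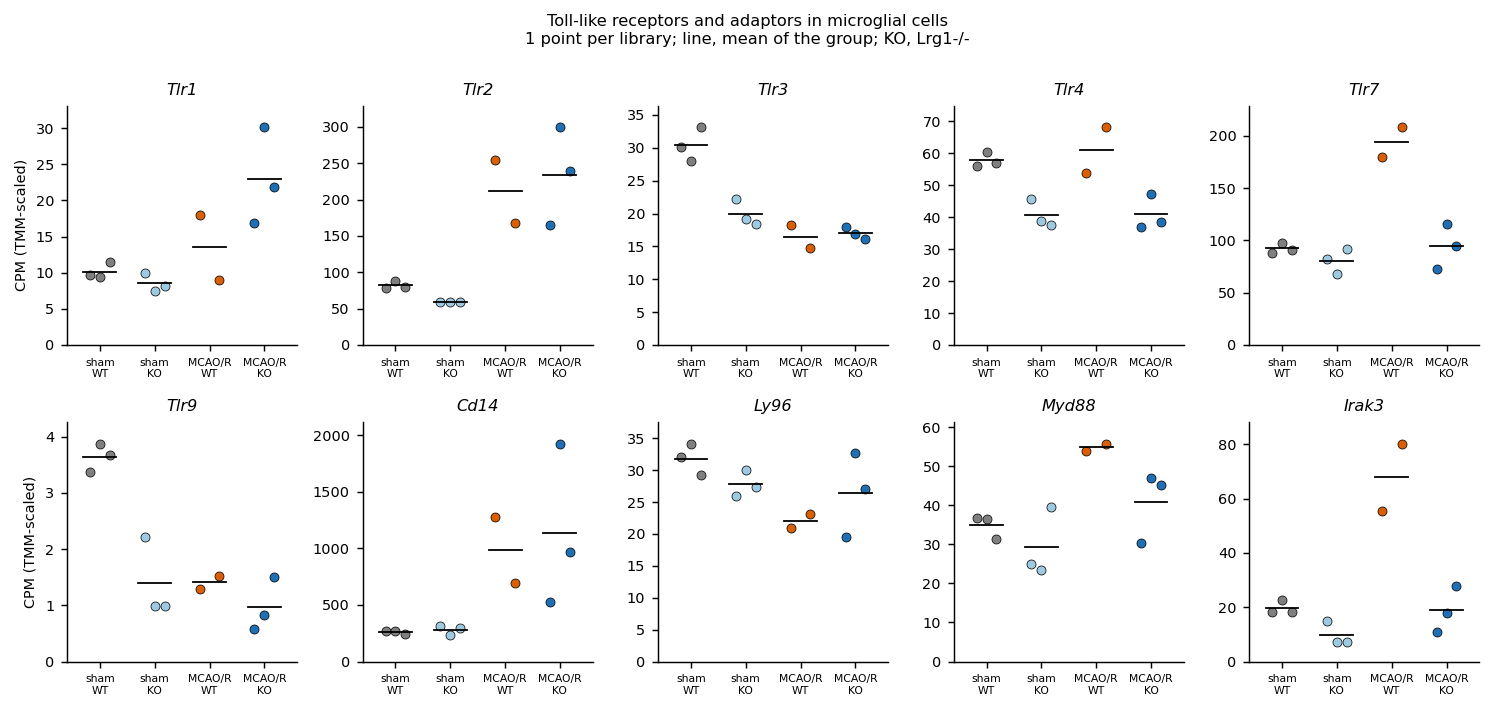
CPM (scaled by the trimmed mean of M-values) of each of the 10 genes in microglial cells, 1 point per library and 1 panel per gene, with a line at each group's mean; the y axes start at 0. The MCAO/R + WT points of Tlr7 (180 and 208) and Irak3 (55.6 and 80.1) lie above all other libraries, whereas for Tlr2 and Cd14 the stroke libraries of both genotypes lie above the sham libraries.

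Between the genotypes, microglial Irak3, Tlr7 and Tlr4 were lower in knockout mice after stroke, and Tlr4 was also lower after sham surgery. After stroke, 3 of 10 genes were called where 25.6% of all genes were, all lower in MCAO/R + Lrg1-/- than in MCAO/R + WT. Irak3 was 3.53-fold lower (log2 -1.82, SE 0.33, adjusted p = 0.0023): the highest knockout library, 27.9 CPM, lay below the lower wild-type library, 55.6 CPM. Tlr7 was 2.05-fold lower (log2 -1.04, SE 0.19, adjusted p = 0.0025) with no overlap, a call kept under every alternative at -0.84 to -1.34. Tlr7 lies on the X chromosome, and the sex of the knockout mice is not stated. In the clustering with unbalanced neighbours, the X-linked Xist led the genes of a microglial cluster, 89.0% of it from MCAO/R + Lrg1-/- replicate 2. The part of sex in the Tlr7 difference was not tested. Tlr4 held 36.9, 47.3 and 38.6 CPM in MCAO/R + Lrg1-/- against 53.8 and 68.1 CPM in MCAO/R + WT, 1.49-fold lower (log2 -0.57, SE 0.16, adjusted p = 0.020), but -0.40 with an adjusted p of 0.19 without MCAO/R + WT replicate 2. The median of all genes in this comparison was 0.11, and it differed with gene span, as set out below with the spans of Irak3 and Tlr4.

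Levels of these 3 genes within microglial clusters are given as plain CPM and with no test. Within the low-UMI cluster Irak3 stood at 3.43, 4.11 and 4.66 CPM in the 3 MCAO/R + Lrg1-/- libraries. In the MCAO/R + WT libraries it stood there at 6.24 and 28.1 CPM, on few UMIs. The 28.1 CPM came from 38 cells of replicate 2 with a median of 2493 UMIs. In clusters 1, 8 and 9 taken one by one, Irak3 ran from 38.5 to 90.1 CPM in MCAO/R + WT and from 13.5 to 30.5 CPM in MCAO/R + Lrg1-/-, and Tlr7 from 155 to 205 against 93.6 to 130 CPM, so that the groups did not overlap within them. In cluster 2, which held 23 and 21 cells of MCAO/R + Lrg1-/- replicates 1 and 5, Irak3 overlapped (31.2 and 57.0 against 3.87 and 67.2 CPM) and Tlr7 did not (208 and 224 against 93.0 and 52.2 CPM). Tlr4 overlapped between the groups in clusters 1 (48.4 and 58.5 against 37.3 to 71.1 CPM), 2 (53.5 and 99.1 against 44.8 and 65.9), 8 (58.5 and 70.5 against 43.2 to 64.9) and 9 (46.1 and 57.3 against 40.6 to 62.3). Without the clusters of low UMIs the values after stroke were -1.58 for Irak3 (adjusted p = 0.0017), -0.84 for Tlr7 (adjusted p = 0.0012) and -0.32 for Tlr4 (adjusted p = 0.17). Irak3 was also -0.78 with an adjusted p of 0.15 when the clustering neighbours were not balanced over libraries.

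After sham surgery, 3 of 10 genes were lower in knockout microglial cells, where 19.7% of all genes were called. Tlr3 held 22.2, 19.1 and 18.4 CPM in sham + Lrg1-/- against 30.2, 28.0 and 33.1 CPM in sham + WT, 1.52-fold lower without overlap (log2 -0.60, SE 0.15, adjusted p = 0.014). Tlr4 held 45.7, 38.8 and 37.5 against 55.9, 60.5 and 57.0 CPM, 1.42-fold lower (log2 -0.50, SE 0.15, adjusted p = 0.031). Tlr9 rested on 17, 6 and 3 UMIs in the knockout libraries (2.22, 0.981 and 0.987 CPM) and was 2.44-fold lower (log2 -1.29, SE 0.40, adjusted p = 0.037). Calls were lost for Tlr3 without sham + Lrg1-/- replicate 2 (-0.56) or sham + WT replicate 3 (-0.54), for Tlr4 without any sham library but sham + Lrg1-/- replicate 1 (-0.45 to -0.53) and for Tlr9 likewise, and without the clusters of low UMIs Tlr4 was -0.37 (adjusted p = 0.092). The 3 sham + WT libraries of Irak3 (18.2 to 22.5 CPM) also lay above the 3 sham + Lrg1-/- libraries, at log2 -0.96 (SE 0.34, adjusted p = 0.062).

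No gene of the set passed the interaction test in microglial cells with edgeR, where 5.43% of all genes did. At an unadjusted p under 0.05 there were 3 (Tlr1 1.01, Tlr3 0.65 and Tlr7 -0.83), and 4294 of all 18653 genes. DESeq2 called Tlr7 (-0.86, adjusted p = 0.018). Without the clusters of low UMIs edgeR called Tlr7 too (-0.77, adjusted p = 0.026), and with unbalanced neighbours Tlr2 (1.10, adjusted p = 0.042). Leaving out MCAO/R + Lrg1-/- replicate 2 gave Tlr7 (adjusted p = 0.045), and leaving out MCAO/R + WT replicate 1 gave Tlr1 (1.60, adjusted p = 0.022) and Tlr3 (0.82, adjusted p = 0.049).

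**Figure D3:**
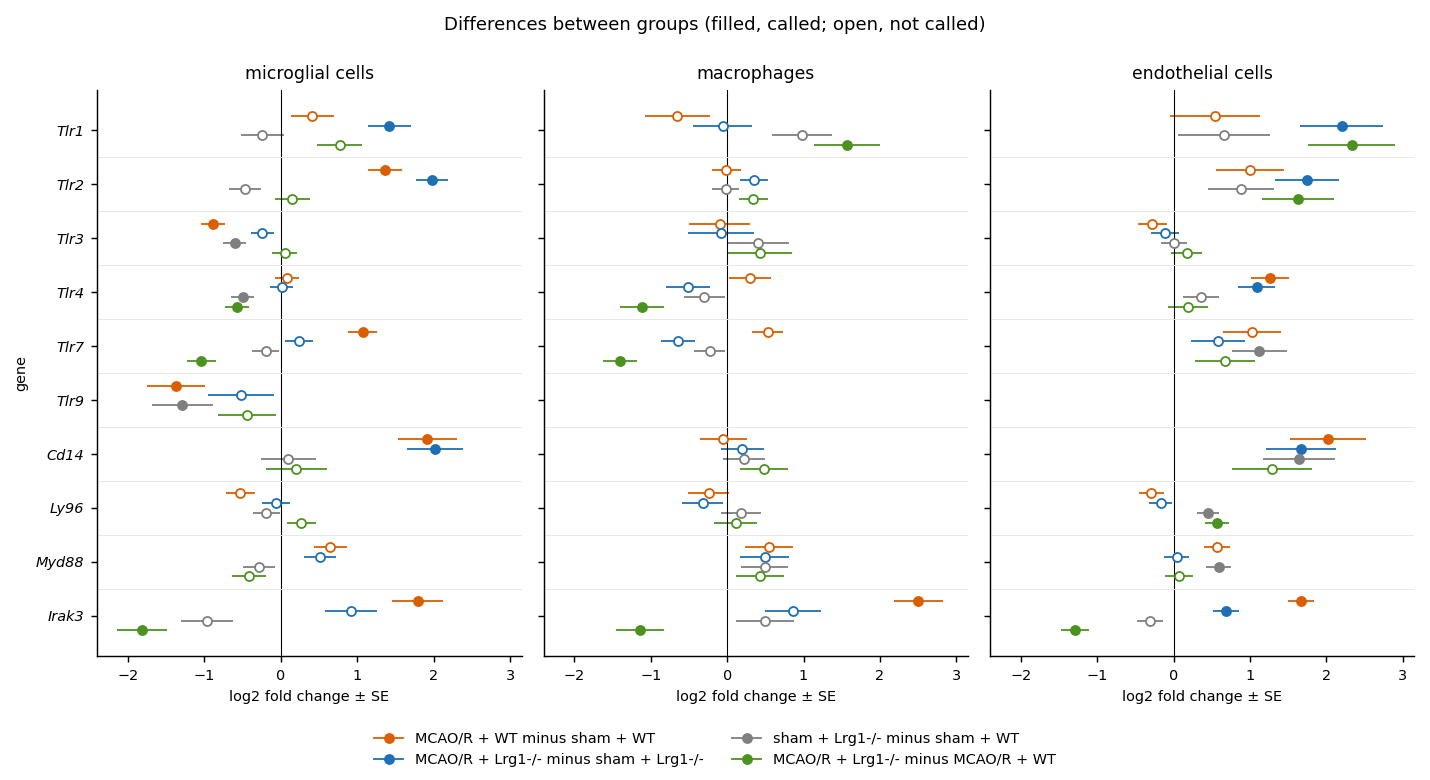
Log2 fold change with its standard error for each gene in microglial cells, macrophages and endothelial cells in the 4 comparisons between groups; filled points passed the test. Irak3 is above 0 after stroke in wild-type mice in all 3 cell types (1.79, 2.50 and 1.67) and below 0 in MCAO/R + Lrg1-/- against MCAO/R + WT (-1.82, -1.14 and -1.29).

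Macrophages, which line the vessels and meninges of the brain, held higher medians of Cd14 and Ly96 than microglial cells. Of the 9 genes tested there (Tlr9, with 16 UMIs in all, was too low), 1 was called in wild-type mice, where 9.08% of all 11445 genes were. It was again Irak3, at 10.1, 14.8 and 12.1 CPM after sham surgery and 89.4 and 49.3 CPM after stroke. Both stroke libraries lay above the sham libraries, 5.65-fold (log2 2.50, SE 0.32, adjusted p = 1.6e-04), and the call was kept under every alternative at 1.99 to 2.86. Tlr2 and Cd14, which rose in microglial cells of the same mice, gave -0.01 (SE 0.19) and -0.05 (SE 0.31) in macrophages.

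In macrophages of knockout mice, edgeR called none of the 9 after stroke (9.41% of all genes). At an unadjusted p under 0.05 there were 2 of them, and 2835 of all 11445 genes. Irak3 held 19.4, 17.5 and 12.7 CPM after sham surgery and 15.4, 34.5 and 42.0 CPM after stroke (log2 0.86, SE 0.37, adjusted p = 0.16), with overlap, and Tlr7 82.7, 93.2 and 72.8 against 38.5, 66.1 and 48.4 CPM (log2 -0.64, SE 0.22, adjusted p = 0.078), without. Between the sham groups none of the 9 was called either (2.86% of all genes), with 1 of them and 1861 of all 11445 genes at an unadjusted p under 0.05.

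After stroke, 4 of the 9 genes differed between the genotypes in macrophages, where 17.1% of all genes did. Tlr7 held 122 and 164 CPM in MCAO/R + WT and 38.5, 66.1 and 48.4 CPM in MCAO/R + Lrg1-/-, 2.64-fold lower (log2 -1.40, SE 0.22, adjusted p = 7.4e-04) without overlap, and the call was lost only in cells thinned to 1000 UMIs (-0.67, adjusted p = 0.23). Irak3 was 2.20-fold lower (log2 -1.14, SE 0.32, adjusted p = 0.022), and was not called without MCAO/R + Lrg1-/- replicate 1 (-0.92) or 2 (-1.24) or MCAO/R + WT replicate 1 (-0.64). Tlr4 fell from 91.8 and 122 to 42.4, 69.0 and 22.6 CPM, 2.16-fold (log2 -1.11, SE 0.29, adjusted p = 0.016), and was -0.89 and not called without MCAO/R + WT replicate 2. Tlr1 was 2.97-fold higher (log2 1.57, SE 0.43, adjusted p = 0.021), but its groups overlapped (11.3 and 3.97 against 23.1, 32.5 and 11.3 CPM) and it was not called without MCAO/R + Lrg1-/- replicate 2 (1.06) or MCAO/R + WT replicate 2 (1.10).

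In the interaction test in macrophages, edgeR called none of the 9 (0.149% of all genes). At an unadjusted p under 0.05 there were 2, and 1482 of all 11445 genes. The 2 were Irak3 at -1.64 (SE 0.50, adjusted p = 0.19) and Tlr7 at -1.17 (SE 0.30, adjusted p = 0.11). DESeq2 called Tlr7 (-1.21, adjusted p = 0.027), as did edgeR without MCAO/R + WT replicate 1 (-1.37, adjusted p = 0.038). With no filter on low counts both Irak3 (-1.66, adjusted p = 0.026) and Tlr7 (-1.18, adjusted p = 0.030) were called. The early response list held 41000 to 50150 CPM in wild-type and 14781 to 27808 CPM in knockout macrophages, and its part in the genotype differences was not tested.

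Outside the myeloid cells, RNA of microglial origin has to be set beside each level. The 10 microglial markers together held 257 to 371 CPM in endothelial cells of MCAO/R + WT, 444 to 845 in sham + WT, 905 to 1757 in sham + Lrg1-/- and 627 to 1852 in MCAO/R + Lrg1-/-. For each library, the level that a gene would have if it had come in with those markers was computed from the same library's microglial cells, and the measured level was divided by it. In endothelial cells the median ratio was 0.884 for Tlr1, 1.03 for Tlr2 and 0.760 for Tlr7, so that these 3 genes stood at about the level that goes with the markers. It was 10.7 for Tlr3, 11.5 for Irak3, 8.03 for Ly96 and 6.52 for Myd88, well above 1 in all 11 libraries. Tlr4 (1.94; 1.02 to 5.67) and Cd14 (1.57; 1.12 to 2.20) lay between, above 1 in all 11 libraries.

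Among other cell types, astrocytes reached 19.8 for Tlr3, vascular smooth muscle cells 14.3 for Myd88 and 6.37 for Irak3, and pericytes 6.34 for Myd88 and 5.28 for Irak3. For Tlr2 the medians in astrocytes, vascular smooth muscle cells, pericytes, oligodendrocytes, choroid plexus epithelial cells, and neurons and neuroblasts (1 type here) ran from 0.693 to 1.13, for Tlr7 from 0.709 to 0.933 and for Cd14 from 1.01 to 1.10. In those cells the medians of these 3 genes stood at about the level that goes with microglial markers, and the source of their RNA was not tested.

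**Figure D4:**
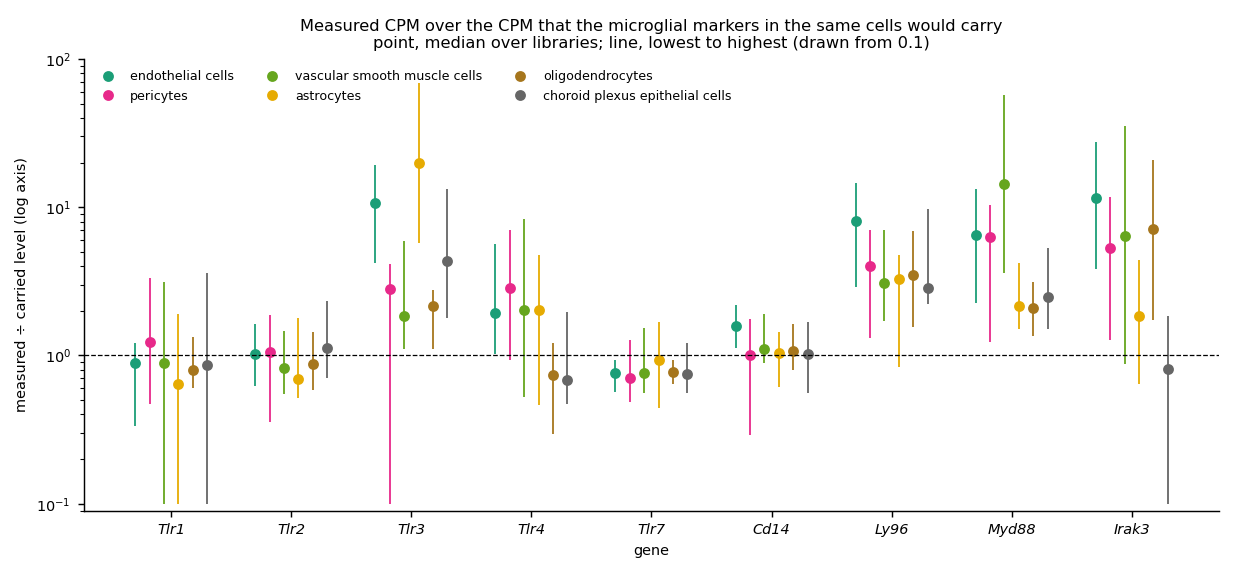
Measured CPM divided by the CPM that would come with the microglial markers found in the same cells, per gene in 6 cell types other than myeloid ones, on a log axis; points are medians over libraries, lines run from the lowest to the highest library and a ratio of 1 is marked. Tlr3, Ly96, Myd88 and Irak3 lie above 1 in endothelial cells (medians 10.7, 8.03, 6.52 and 11.5), while Tlr2 (1.03) and Tlr7 (0.760) lie about 1 or below.

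In endothelial cells, the lining of the vessels, stroke raised Irak3, Tlr4 and Cd14 in both genotypes. In wild-type mice these were 3 of 9 genes tested, where 11.7% of all 16900 genes were called. Irak3 held 15.1, 15.7 and 16.4 CPM after sham surgery and 53.5 and 46.6 CPM after stroke. The groups lay far apart relative to their spread, at 3.18-fold (log2 1.67, SE 0.17, adjusted p = 1.2e-04), and the call was kept under every alternative at 1.40 to 1.76. Tlr4 rose from 6.26, 5.90 and 4.93 to 16.7 and 10.5 CPM, 2.39-fold (log2 1.26, SE 0.25, adjusted p = 0.0076), and its ratio to the marker-borne level was 1.94 to 2.65 in sham + WT and 3.03 to 4.73 in MCAO/R + WT. Cd14 rose from 26.9, 24.1 and 13.7 to 131 and 43.6 CPM, 4.05-fold (log2 2.02, SE 0.50, adjusted p = 0.022), while its ratio to the marker-borne level was 1.69 to 2.20 in sham + WT and 1.23 to 1.56 in MCAO/R + WT. Without MCAO/R + WT replicate 1, Cd14 gave 1.02 (adjusted p = 0.39) and Tlr4 0.88 (adjusted p = 0.14), and the Cd14 call was also lost without sham + WT replicate 2 (2.10) or 3 (1.77). In cells thinned to 1000 UMIs, Tlr4 was 0.58 (adjusted p = 0.47). Myd88 did not overlap between the groups (14.5, 14.2 and 13.6 against 24.8 and 17.0 CPM) and missed the threshold (log2 0.57, SE 0.17, adjusted p = 0.054).

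The mix of endothelial clusters differed between these groups. In sham + WT cluster 5 held 47.9 to 72.1% of the endothelial cells and cluster 22 held 14.9 to 15.8%, against at most 0.932% and 0.324% in MCAO/R + WT. Cluster 6 went from 3.52 to 3.98% to 72.0 and 74.0%, and cluster 14 from 1.52 to 1.99% to 16.7 and 17.1%. Within these 2 clusters Irak3 was higher after stroke, at 19.5 to 27.8 against 52.2 and 48.7 plain CPM in cluster 6 and at most 36.2 against 46.9 and 47.4 in cluster 14, whereas it overlapped in cluster 10 (7.89 to 26.4 against 60.1 and 22.5).

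Endothelial Tlr4 and Cd14 did not separate in the same way. Tlr4 held 5.27 to 9.42 CPM in sham + WT and 16.1 and 11.3 in MCAO/R + WT in cluster 6, overlapped in cluster 14 (13.3 to 23.3 against 19.0 and 6.13) and was lower after stroke in cluster 10 (15.8 to 27.9 against 8.58 and 6.74). Cluster 10 cells of the wild-type libraries had median UMIs of 1438 to 1647, so that low values there rest on few UMIs. Cd14 overlapped in cluster 6 (43.1 to 98.0 against 113 and 44.2 CPM) and cluster 14 (at most 117 against 170 and 38.5), and not in cluster 10 (54.3 to 97.2 against 443 and 101). In knockout mice, sham and stroke libraries overlapped within cluster 6 for Irak3 (17.7 to 42.8 against 19.4 to 27.7 CPM), Tlr4 (2.06 to 14.2 against 7.97 to 15.1) and Cd14 (50.5 to 111 against 62.4 to 181), and for all 3 within cluster 14. In cluster 10 of these mice Irak3 (4.53 to 5.93 against 5.26 to 21.9 CPM) and Tlr4 (7.84 to 12.6 against 8.87 to 22.8) overlapped, while Cd14 did not (84.7 to 170 against 341 to 457).

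In endothelial cells of knockout mice, stroke raised 5 of 9 genes, where 13.9% of all genes were called. Irak3 held 12.8, 12.6 and 12.7 CPM after sham surgery and 14.5, 23.2 and 23.4 CPM after stroke, 1.61-fold higher without overlap (log2 0.69, SE 0.17, adjusted p = 0.020). Tlr4 rose from 7.82, 7.27 and 6.76 to 10.9, 19.8 and 15.5 CPM, 2.13-fold (log2 1.09, SE 0.24, adjusted p = 0.013). Cd14 rose from 33.7, 56.4 and 112 to 162, 239 and 239 CPM, 3.18-fold (log2 1.67, SE 0.46, adjusted p = 0.034). The stroke libraries of both genes lay above the sham libraries. The ratio to the marker-borne level went from 1.02 to 1.77 in sham + Lrg1-/- to 1.51 to 5.67 in MCAO/R + Lrg1-/- for Tlr4, and from 1.12 to 2.13 to 1.13 to 1.68 for Cd14. The mix of clusters moved in knockout mice too, cluster 5 going from 17.1 to 30.7% of the endothelial cells after sham surgery to 0.170 to 3.70% after stroke, cluster 22 from 21.0 to 29.0% to 0.323 to 6.39% and cluster 14 from 1.51 to 3.35% to 22.2 to 50.4%. The calls of Irak3 were lost without sham + Lrg1-/- replicates 1 (0.69) or 2 (0.68) or MCAO/R + Lrg1-/- replicate 2 (0.57), and those of Tlr4 without sham + Lrg1-/- replicate 2 (1.09) or MCAO/R + Lrg1-/- replicate 2 (0.85). Cd14 was not called without sham + Lrg1-/- replicate 1 (1.34) or 2 (1.55), MCAO/R + Lrg1-/- replicate 2 (1.58) or 5 (1.58), or sham + WT replicate 2 (1.66), which is outside this comparison but in the same fit.

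Tlr1 and Tlr2 were the other 2 genes called in knockout endothelial cells. Tlr2 held 6.41, 9.15 and 11.0 CPM after sham surgery and 19.9, 16.1 and 53.8 CPM after stroke (3.36-fold; log2 1.75, SE 0.42, adjusted p = 0.019), and Tlr1 0.351, 0.436 and 1.28 against 2.44, 2.26 and 4.50 CPM (4.59-fold; log2 2.20, SE 0.54, adjusted p = 0.021). Neither overlapped between the groups. Within clusters Tlr2 was higher after stroke in cluster 6 (4.11 to 7.08 against 9.47 to 18.0 CPM) and cluster 10 (14.2 to 20.7 against 40.1 and above) and overlapped in cluster 14. In MCAO/R + Lrg1-/- the ratio to the level that goes with the microglial markers was 0.619 to 1.03 for Tlr2 and 0.739 to 1.02 for Tlr1, and the part of that RNA in both calls was not tested. Both calls were lost without sham + Lrg1-/- replicate 1 (1.88 for Tlr1, 1.56 for Tlr2) or replicate 2 (1.93 and 1.78).

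Between the genotypes, endothelial Irak3 was lower in knockout mice after stroke, while Tlr1, Tlr2 and Ly96 were higher. Among the 9 genes tested 4 were called (29.8% of all genes). Irak3 was 2.44-fold lower (log2 -1.29, SE 0.18, adjusted p = 8.8e-04): the 3 MCAO/R + Lrg1-/- libraries, 14.5 to 23.4 CPM, lay below both MCAO/R + WT libraries. It was lost as a call only in cells thinned to 1000 UMIs (-0.48, adjusted p = 0.11). Within clusters 6, 10 and 14 the knockout libraries lay below the wild-type ones as well, at 19.4 to 27.7 against 52.2 and 48.7, 5.26 to 21.9 against 60.1 and 22.5, and at most 25.7 against 46.9 and 47.4 CPM. In cluster 10, whose wild-type cells held few UMIs, the groups nearly met (21.9 against 22.5 CPM). Tlr1 (2.33, SE 0.57, adjusted p = 0.012), Tlr2 (1.63, SE 0.47, adjusted p = 0.023) and Ly96 (0.57, SE 0.16, adjusted p = 0.022) were higher, with Ly96 at 12.9 and 11.8 against 17.5, 20.2 and 17.2 CPM. Tlr1 rested on 23 and 11 UMIs in MCAO/R + WT and 20, 81 and 37 in MCAO/R + Lrg1-/-. The microglial markers were also higher in these knockout libraries, and Tlr1 and Tlr2 stood near the level that goes with them. The part of that RNA in both differences was not tested. Without the clusters of low UMIs Tlr2 was 0.64 (adjusted p = 0.16), Ly96 0.39 (adjusted p = 0.12) and Tlr1 1.97 (adjusted p = 0.0048). Tlr2 was also not called without MCAO/R + WT replicate 2 (1.24, adjusted p = 0.16), nor Tlr1 without MCAO/R + WT replicate 1 (2.68) or 2 (2.05), nor Ly96 without either of these (0.63 and 0.50) or MCAO/R + Lrg1-/- replicate 2 (0.45).

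After sham surgery 4 of 9 genes were called higher in knockout endothelial cells, where 27.8% of all genes were called: Cd14 (1.64, SE 0.47, adjusted p = 0.023), Tlr7 (1.12, SE 0.36, adjusted p = 0.037), Myd88 (0.59, SE 0.16, adjusted p = 0.018) and Ly96 (0.45, SE 0.14, adjusted p = 0.037). The microglial markers were higher in the same knockout libraries, and the ratio to the level that goes with them was 1.69 to 2.20 in sham + WT and 1.12 to 2.13 in sham + Lrg1-/- for Cd14, and 0.771 to 0.930 and 0.566 to 0.738 for Tlr7. It was at least 3.62 for Myd88 and 4.14 for Ly96 in all 6 sham libraries. The Tlr7 libraries overlapped (4.74, 3.06 and 2.57 against 4.48, 8.65 and 9.33 CPM) and the others did not, with Myd88 at 14.5, 14.2 and 13.6 against 18.8, 20.1 and 25.2 CPM. Without the clusters of low UMIs Cd14 was 0.59 (adjusted p = 0.45), Myd88 0.37 (adjusted p = 0.13) and Ly96 0.22 (adjusted p = 0.35), and Tlr7 was 0.89 (adjusted p = 0.014). All 4 calls were lost without sham + Lrg1-/- replicate 5 (Cd14 1.05, Tlr7 0.92, Myd88 0.45, Ly96 0.34), without sham + WT replicate 2 (1.73, 1.04, 0.60 and 0.52) and without sham + WT replicate 3 (1.40, 0.94, 0.57 and 0.40). Without sham + Lrg1-/- replicate 2 the calls of Tlr7 (0.99) and Ly96 (0.42) were lost, and that of Ly96 also without sham + WT replicate 1 (0.44) or either MCAO/R + WT library (0.44).

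For the interaction in endothelial cells, edgeR called none of the 9 genes (0.367% of all genes). At an unadjusted p under 0.05 there were 2 of them, and 1982 of all 16900 genes. The smaller p was that of Irak3 (log2 -0.98, SE 0.24, unadjusted p = 0.0017, adjusted p = 0.12). It was called by DESeq2 (adjusted p = 0.018), with unbalanced neighbours (-1.15, adjusted p = 0.0086) and without the clusters of low UMIs (-1.12, adjusted p = 0.011). Over all 11 cell types tested for the interaction, edgeR called 0 of 96, where 0.785% of all genes were called. DESeq2 called 3, and its share over all genes was not kept. At an unadjusted p under 0.05 in edgeR there were 16 of the 96, and 16307 of 150769 over all genes.

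Gene span moved with genotype as well. The median log2 difference of knockout against wild-type after stroke in endothelial cells went from 0.25 for genes under 5 kb to -0.18 for genes over 50 kb, in macrophages from 0.37 to -0.16 and in microglial cells from 0.18 to -0.05. Irak3 spans 60.5 kb, with differences of -1.29, -1.14 and -1.82 in those 3 cell types, and Tlr4 103 kb, with 0.19 (not called), -1.11 and -0.57. Malat1, a nuclear RNA, held 18194 to 23391 CPM in wild-type and 8785 to 14412 CPM in knockout endothelial cells. The part of either in the differences was not tested.

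**Figure D5:**
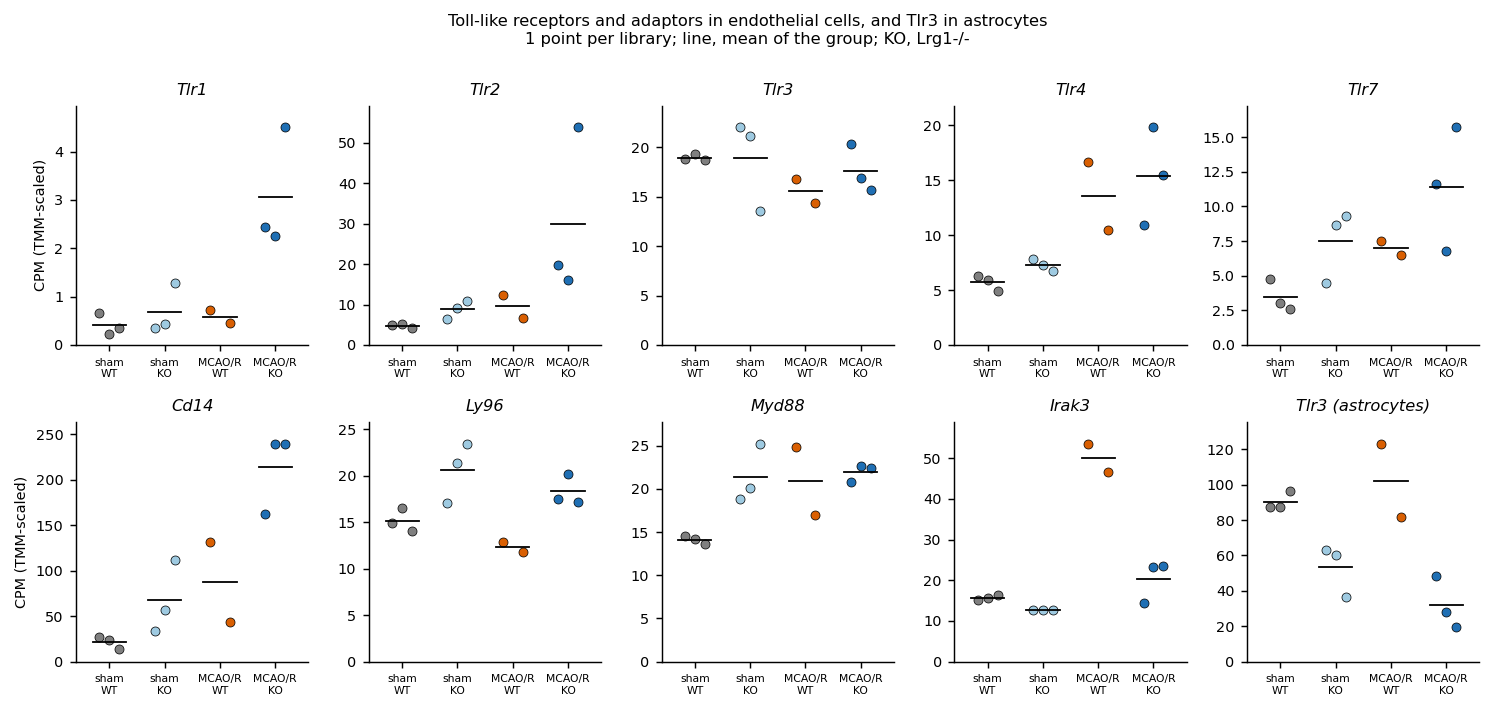
CPM (scaled by the trimmed mean of M-values) of 9 genes in endothelial cells and of Tlr3 in astrocytes, 1 point per library with a line at each group's mean; the y axes start at 0. Endothelial Irak3 lies at 46.6 and 53.5 in MCAO/R + WT and at 23.4 or below in the other 9 libraries, and astrocyte Tlr3 is lowest in MCAO/R + Lrg1-/- (19.3 to 48.3).

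In astrocytes, which support neurons and vessels, Tlr3 was the gene of the set that stood out. It held 87.4, 87.6 and 96.2 CPM in sham + WT, 62.8, 60.5 and 36.3 in sham + Lrg1-/-, 123 and 81.6 in MCAO/R + WT and 48.3, 28.1 and 19.3 in MCAO/R + Lrg1-/-. Every knockout library lay below every wild-type library. After sham surgery the difference did not pass the test (log2 -0.76, SE 0.29, adjusted p = 0.15). After stroke the knockout libraries were 3.36-fold lower (log2 -1.75, SE 0.32, adjusted p = 0.0097), on 26, 37 and 18 UMIs against 380 and 533.

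Monocytes, which enter the brain from blood, showed a Cd14 rise after stroke. In wild-type mice Cd14 went from 277, 262 and 247 to 1070 and 833 CPM, 3.64-fold without overlap (log2 1.86, SE 0.41, adjusted p = 0.024). In knockout mice it went from 263, 606 and 504 to 536, 1953 and 1096 CPM, with overlap (log2 1.41, SE 0.38, adjusted p = 0.023). Tlr7 fell in monocytes of knockout mice, from 80.6, 75.8 and 54.4 to 43.5, 26.2 and 30.0 CPM, 2.24-fold (log2 -1.16, SE 0.27, adjusted p = 0.012). Tlr3 was called lower there too (log2 -2.93, SE 0.82, adjusted p = 0.030), at 45.5, 3.99 and 14.8 CPM (35, 1 and 6 UMIs) after sham surgery and 3.84, 2.83 and 3.51 CPM (3, 32 and 29 UMIs) after stroke. In neutrophils, where only the genotypes after stroke could be compared, edgeR called 0 of 7 genes tested, where 0.127% of all genes were called. At an unadjusted p under 0.05 there was 1 of the 7, and 938 of all 6322 genes.

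The mural cells of the vessels differed between the genotypes in Irak3 and Ly96, and in Cd14 and Tlr2 at levels near those that go with microglial markers. Irak3 was lower in knockout pericytes after stroke, at 15.3, 15.6 and 15.5 against 59.4 and 23.7 CPM (log2 -1.42, SE 0.44, adjusted p = 0.048). These values rest on 5, 20 and 7 UMIs against 191 and 78. It was also lower in knockout vascular smooth muscle cells after sham surgery, at 8.91, 6.99 and 6.45 against 16.8, 21.7 and 18.2 CPM (log2 -1.34, SE 0.40, adjusted p = 0.047). The groups did not overlap in either cell type. Cd14 was higher in knockout mice in both cell types after stroke, at log2 2.35 in pericytes and 1.88 in vascular smooth muscle cells, and in the latter after sham surgery (2.05). Ly96 was higher in vascular smooth muscle cells after sham surgery (1.35) and stroke (1.87), and Tlr2 in pericytes after stroke (2.38). The median ratio to the marker-borne level was 1.01 for Cd14 and 1.05 for Tlr2 in pericytes and 1.10 for Cd14 in vascular smooth muscle cells, where that of Ly96 was 3.08.

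The remaining calls lay in cells in which Tlr1, Tlr2, Tlr7 and Cd14 were near the level that goes with microglial markers, or in T cells and ciliated ependymal cells. After stroke in knockout mice these were Cd14 in pericytes (2.59), Tlr2 (2.24) and Cd14 (2.31) in T cells and Tlr2 in choroid plexus epithelial cells (1.33), and in wild-type mice Cd14 in the choroid plexus (2.09). In MCAO/R + Lrg1-/- against MCAO/R + WT they were Tlr1 (2.99), Tlr2 (2.52) and Cd14 (2.20) in oligodendrocytes, Tlr2 (1.99) and Ly96 (1.50) in neurons and neuroblasts, and Cd14 (1.44) in the choroid plexus. Between the sham groups they were Tlr2 (0.86), Tlr7 (1.22), Cd14 (2.22), Ly96 (1.11) and Myd88 (1.20) in the choroid plexus and Myd88 in ciliated ependymal cells (1.74), all higher in knockout mice. In the choroid plexus the ratio was 2.86 for Ly96 and 2.48 for Myd88, and in neurons and neuroblasts 2.32 for Ly96. The adjusted p of these values ran from 0.0038 to 0.048. In the cell types other than microglial cells, macrophages and endothelial cells, 260 further tests of the 10 genes over the 4 comparisons were not called, with adjusted p of 0.054 and above.

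A list of 74 further genes of the pathway, from receptors to secreted targets, moved in both directions. In microglial cells 73 were tested, of which stroke raised 12 and lowered 8 in wild-type mice and raised 16 and lowered 14 in knockout mice (medians 0.08 and 0.13, against 0.06 and 0.03 over all genes), where 17.3% and 33.6% of all genes were called. Of the 12 secreted targets 8 rose in wild-type and 9 in knockout mice, and none fell. The chemokine Cxcl2 rose by a log2 value of 3.79 (SE 0.44, adjusted p = 1.1e-04) in wild-type and 4.28 (SE 0.45, adjusted p = 5.0e-05) in knockout microglial cells, and the cytokine Tnf by 1.10 (adjusted p = 0.011) and 1.93 (adjusted p = 1.3e-04). Ccl3 rose by 1.57 and 2.03, and the ribosomal RNA receptor Tlr13 by 1.27 and 0.93. The profilin receptor Tlr12 fell by 2.39 on the log2 scale in wild-type and by 1.59 in knockout mice, and the kinase Ikbke by 1.78 and 1.10.

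Among the receptors and the accessory and trafficking genes of the list, calls went both ways with stroke in wild-type mice. Of the 6 receptors tested in microglial cells 1 rose and 3 fell, and of the 6 accessory and trafficking genes 0 and 2. In macrophages 1 of 5 receptors rose and 1 fell, and of 6 accessory and trafficking genes 1 rose and 2 fell. The share of all genes called in this comparison was 17.3% in microglial cells and 9.08% in macrophages. Unc93b1, which carries the endosomal receptors out of the endoplasmic reticulum, fell from a mean of 864 to 393 CPM in microglial cells (log2 -1.14, adjusted p = 8.1e-04) and from 584 to 268 CPM in macrophages (-1.13, adjusted p = 6.1e-04). Cd180, a receptor homologue that dampens Tlr4 signaling, fell in both (-1.72 and -2.40), as did its partner Ly86 (-1.15 and -1.46), and the flagellin receptor Tlr5 fell in microglial cells (-1.50). In knockout microglial cells the chaperones Hspd1 (1.79) and Hsp90b1 (1.01) and the chemokines Cxcl10 (2.63) and Ccl4 (1.98) rose.

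Between the genotypes, more of the list was lower than higher in knockout microglial cells. After stroke 11 of the 73 genes were higher and 18 lower (25.6% of all genes called), and after sham surgery 7 and 21 (19.7%). Of the 10 inhibitors 5 were lower after sham surgery and 6 after stroke, and none was higher. Of the 18 kinases and ubiquitin ligases 5 and 6 were lower and 1 higher each time. The ubiquitin ligase Peli1 was lower after sham surgery (-2.59, adjusted p = 9.2e-06) and after stroke (-2.73, adjusted p = 2.0e-05), as were the cytokine Il6 (-1.87 and -2.50), the deubiquitinase Tnfaip3 (-1.16 and -1.84) and Cxcl10 (-4.37 and -1.32). After stroke the NF-kB subunit Rel (-1.69), the transcription factor Irf1 (-1.28) and the adaptor Tank (-1.40) were lower, and Lbp (2.01), S100a8 (3.80) and Tlr12 (1.20) higher. After sham surgery Ccl4 (-1.90), Tnf (-1.29), Nfkbia (-1.25), Ube2n (-0.86) and Tab1 (-0.86) were lower and Lbp (2.33) higher. Nfkbia, Dusp1 and Zfp36 are also in the early response list, whose summed level was lower in every knockout library. Neutrophil markers summed to 117 to 237 CPM in MCAO/R + WT and 53.1 to 160 CPM in MCAO/R + Lrg1-/- microglial cells. That list includes Csf3r, and which of its genes microglial cells express themselves was not examined. The sum therefore cannot be read as neutrophil RNA in these cells, and the part of such RNA in the S100a8 difference was not tested.

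In macrophages 68 of the list were tested. Stroke raised 5 and lowered 4 in wild-type mice (9.08% of all genes called), Lbp (1.83), Tollip (1.05), Tlr13 (0.98), Cxcl2 (1.32) and Cxcl1 (1.89) rising and Il10 (-1.50) falling beside the 3 named above. In knockout mice it raised 5 and lowered 6 (9.41%), among them S100a8 (3.72), S100a9 (3.70), Cxcl1 (2.06), Hspd1 (0.99) and Nfkbia (0.79) higher and Cd180 (-0.94), Tank (-0.77), Zfp36 (-0.74), Rel (-0.71) and Unc93b1 (-0.64) lower. Genotype called 3, all lower, after sham surgery, where 2.86% of all genes were called (Peli1 -1.53, Dusp1 -1.20, Cxcl10 -1.62). After stroke 7 were higher and 6 lower (17.1%), with Il10 (2.45), S100a9 (4.59), S100a8 (4.11), Cd180 (1.05) and Hsp90b1 (0.80) higher and Dusp1 (-1.82), Peli1 (-1.66), Ccl3 (-1.36), Zfp36 (-1.04) and Tank (-0.95) lower. S100a8 and S100a9 are abundant in neutrophils, whose markers summed to 57.7 to 62.4 CPM in MCAO/R + WT and 41.8 to 189 CPM in MCAO/R + Lrg1-/- macrophages, and their part was not tested.

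In endothelial cells 71 of the list were tested, and stroke raised 6 and lowered 1 in wild-type mice (11.7% of all genes called). Lbp, which loads lipopolysaccharide onto Cd14, rose from a mean of 6.73 to 29.3 CPM (log2 2.12, SE 0.24, adjusted p = 1.9e-04), and the adaptor Tirap from 18.1 to 31.9 CPM (0.82, SE 0.16, adjusted p = 0.0066). Nfkb2 (0.59), Rela (0.52), Ccl3 (1.48) and Cxcl2 (1.76) rose and Irf1 (-0.55) fell. In knockout mice 11 rose and 5 fell (13.9%), with Vcan (2.08), Tnf (2.20), Ccl3 (1.63), Cxcl2 (1.98) and Ccl4 (1.51) higher and Irf1 (-1.12), Zfp36 (-1.08), Socs3 (-0.79), Socs1 (-0.90) and Dusp1 (-0.46) lower. Genotype called 12 higher and 10 lower after sham surgery (27.8% of all genes called) and 14 higher and 13 lower after stroke (29.8%). Peli1 (-1.23 and -1.17), Dusp1 (-0.74 and -0.80), Ripk1 (-0.81 and -0.97), Chuk (-0.45 and -0.61) and Irak2 (-0.73 and -0.85) were lower after both surgeries, while the neutrophil gene S100a8 (5.67 and 5.40) and the cytokine Il1b (2.94 and 4.50) were higher. Neutrophil markers in these cells summed to 7.55 to 13.7 CPM in wild-type and 9.83 to 183 CPM in knockout libraries, and their part in those differences was not tested.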

How the data were processed

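Single-cell 3′ RNA libraries from 11 mouse brains were analysed from the UMI counts per gene and cell that the authors deposited, raw and not normalized, as made with Cell Ranger and STAR on mm10 per the labels; the file headers name Cell Ranger 7.0.1. Counting was therefore not repeated, and depth is given as UMIs per library. Of the barcodes, cells with more than 500 genes, more than 1000 UMIs and under 25% mitochondrial UMIs were kept. Doublets were simulated and scored per library at an expected rate of 6% and removed. An automatic threshold served sham + WT replicates 2 and 3, both MCAO/R + WT libraries and MCAO/R + Lrg1-/- replicate 2, removing 3.57 to 6.25%. In the remaining libraries, among them all of sham + Lrg1-/-, the cells with the highest scores were removed, 6.00% of each.

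Cells were clustered on 15 principal components of 2000 variable genes, from which the 10 genes, the pathway list and Lrg1 had been left out, with 3 neighbours taken from each library and Leiden clustering at resolution 1.5 (leidenalg 0.10.2, umap-learn 0.5.12, scikit-learn 1.9.0, Python 3.11.15). A cluster was named where at least 3 fixed markers of 1 cell type were at least 2-fold above the mean of the other clusters and present in at least 10% of its cells. It stayed unnamed otherwise, and also where another type scored close or held more of its leading genes. Clusters of few UMIs with no marker of their type among the leading genes stayed unnamed too. Cells are not replicates, so UMIs were summed per library and cell type where a library held at least 20 cells. They were fitted with edgeR 4.0.16 in R 4.3.3 (trimmed mean of M-values, filterByExpr, quasi-likelihood F test, 4 groups in 1 fit), with Benjamini-Hochberg adjustment over all genes of the cell type. A comparison was tested where each of its groups had at least 2 such libraries, and called at an adjusted p under 0.05 and a natural-log fold above 0.25. The fit was tested on simulated counts.

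Groups came from the sample labels. The replicate numbers were not taken to pair the libraries. Over 13 pairs of libraries that share a number the deviations from the group means correlated at -0.47 to 0.09. With so few libraries in a group these deviations depend on each other by construction, so the check cannot exclude a pairing. The genes, the pathway list and the tests were chosen with earlier results of these data known. The 10 genes are named in microglial cells, macrophages and endothelial cells and, elsewhere, mainly where called, and of the 74 pathway genes those called in microglial cells, macrophages or endothelial cells, at most 10 per comparison by adjusted p. Alternatives were DESeq2 1.42.0, other filters, a replicate block, thinning to 1000 UMIs per cell, other clusterings, other samples in the fit and leaving out each library. Leaving out clusters of low UMIs was chosen after seeing the data. The unnamed clusters entered no comparison between groups. Red blood cells entered the counts with 1 gene tested, Cd14 (log2 1.47 after stroke in knockout mice, not called). The comparison of patterns over cell types is reported with a single gene left out.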

Additional observations from a re-analysis of the deposited data

Results flagged for a closer look

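In an unnamed cluster of 11152 cells that entered no comparison above, 10416 cells (93.4%) came from MCAO/R + Lrg1-/- replicate 5, and in these Cd14 held 701 CPM. In the 8 other libraries with 25 to 237 cells in it Cd14 held 192 to 2274 CPM, and sham + WT replicates 2 and 3, with 14 and 12 cells, were not computed. The leading genes of that cluster were Arg1, Apoc2, Hmox1, Gpr84 and Chil3.

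In 6 of 735 tests of the pathway list over the cell types the change with stroke differed between the genotypes by the interaction test of edgeR, a share near the 0.785% over all genes. Lbp, which loads lipopolysaccharide onto Cd14, had an interaction log2 value of -2.43 in endothelial cells (SE 0.32, adjusted p = 0.0056). In microglial cells the chemokine Cxcl10 had 3.05 (SE 0.33, adjusted p = 0.0016), the chaperone Hsp90b1 1.26 (SE 0.30, adjusted p = 0.032) and Ly86, the partner of Cd180, 1.25 (SE 0.34, adjusted p = 0.049). In oligodendrocytes, named here after the values were seen, Hsp90b1 had 1.04 (SE 0.17, adjusted p = 0.026) and the kinase Irak1 -1.03 (SE 0.19, adjusted p = 0.049).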

How the results depend on the processing

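Of 36 called values of the 10 genes in microglial cells, macrophages and endothelial cells, 7 kept their call under every alternative tried and 0 changed direction; those that a single library decides are named with their values beside the results. The numbers of calls over all cell types moved more. The share of all genes called was not kept for any alternative, so these moves cannot be set beside those of all genes. With no filter on low counts they were 21 after stroke in wild-type mice, 32 after stroke in knockout mice, 35 between the genotypes after stroke and 6 in the interaction. With doublets kept there were 26 after stroke in knockout mice. Thinned to 1000 UMIs per cell, the genotypes differed in 3 after sham surgery and 11 after stroke. Without batch-balanced neighbours there were 19 after stroke in wild-type mice, 6 between the sham groups and 2 in the interaction. With only the groups compared in the fit there were 19 after stroke in wild-type mice and 7 between the genotypes after stroke. DESeq2 gave 3 in the interaction and leaving out the clusters of low UMIs gave 2. With the replicate block the 4 comparisons gave 7, 19, 1 and 13 calls and the interaction 0; the numbers shared by the libraries are not known to pair them. Leaving out 1 library at a time gave 6 to 16 after stroke in wild-type and 5 to 23 in knockout mice, 2 to 19 between the sham groups, 7 to 26 between the stroke groups and 0 to 3 in the interaction. The causes of these moves were not tested, beyond fewer or more genes and libraries in a fit. Depth limits Tlr9, and 2 or 3 mice in each group limit every comparison.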

Other observations

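Within the microglial cells, Tlr2 after stroke differed between clusters. In the cluster with the highest level it held 320 to 370 CPM in the 5 stroke libraries, in 2 others 131 to 227 and 164 to 234 CPM, in cluster 2, with 4 of these libraries, 66.4 to 81.3 CPM, and in the cluster of low UMIs 28.1 to 137 CPM. These levels are a description, since the clusters were made from the same cells.

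Over the 16 cell types, the genes whose mean level followed each of the 10 most closely were sought among 14621 genes, by Pearson's r of log2(CPM + 1). The values are descriptions with no test, since the 16 points share libraries and free RNA. For Tlr2 they were Cd300a (0.975) and Osm (0.974), and for Tlr1 5430427O19Rik (0.963), Pik3cg (0.958) and Esr1 (0.940). Tlr4 was followed by Nfkbiz (0.956), Trib1 (0.941) and Itga5 (0.930). Tlr7 was followed by Unc93b1 (0.963), Irf5 (0.952) and BC049352 (0.944). The closest genes to Tlr3 were less close, with Paqr7 at 0.865, Eva1a at 0.859 and C030005K06Rik at 0.843. For Cd14 they were Lrrc25 (0.979), Arl11 (0.973) and C5ar1 (0.972), for Ly96 Hmox1 (0.958), Stab1 (0.932) and Tnfrsf11a (0.925), for Myd88 Cebpb (0.918), Il13ra1 (0.913) and Mir22hg (0.912) and for Irak3 Tpd52 (0.883), Plaur (0.880) and Dok3 (0.880). Tlr9 stayed under 10 CPM in every cell type and was not compared.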
